A study of Homo sapiens with 8 samples.

Results

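The potassium channel genes were taken as the protein-coding genes whose symbol begins with KCN, which holds the pore-forming subunits and most of their auxiliary subunits. Of 38592 genes in the deposited tables, 97 protein-coding genes had such a symbol, 2 of them were left out by the rule, and the 95 members fell into 21 subfamilies by the letters after KCN. The members were followed across 8 groups of islet-like cells made in culture from the established human embryonic stem cell line H1. The groups were ISL1 KO, PAX6 KO, PDX1 KO and wild-type (WT) cells, each given either the ISL1-IRES2-BFP vector (labelled ISL1 OE) or a control vector with blue fluorescent protein alone (BFP). All cells were transduced on day 11 of differentiation and harvested on day 18, and all carried the fluorescent protein. There were 3 libraries in each group except PDX1 KO ISL1 OE, WT ISL1 OE and WT BFP, which had 2 each. ISL1, PAX6 and PDX1 encode homeodomain transcription factors of the endocrine pancreas, and the design asks what each knockout changes and what added ISL1 changes in each genotype.

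Potassium channels let potassium leave the cell and so hold the membrane at rest or end an action potential. In islet cells they set when calcium enters and hormone is released. Leak channels with 2 pore domains (KCNK) are open at rest, and inward rectifiers (KCNJ) include channels opened by G proteins. Voltage-gated channels (KCNA, KCNB, KCNC, KCND, KCNH and KCNQ) open on depolarisation. Their silent relatives (KCNF, KCNG, KCNS and KCNV) form no channel alone and join KCNB subunits. Calcium-activated channels (KCNM and KCNN) couple calcium to repolarisation, and auxiliary subunits (KCNAB, KCNE, KCNIP and KCNMB) alter gating or traffic.

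Total gene counts ran from 40959445 to 66818593 per library, with 24721 to 27304 genes detected. Of the 95 members, 84 to 91 had a count in each library, and 2 had none in any. Correlations of log expression within a group were at least 0.981 except in PAX6 KO ISL1 OE (lowest 0.927) and PDX1 KO ISL1 OE (0.9), where PAX6 KO ISL1 OE replicate 3 and PDX1 KO ISL1 OE replicate 4 stood apart. PDX1 KO ISL1 OE replicate 4 had 44880 CPM of INS, against 324 CPM in replicate 2 and 173 to 371 CPM in PDX1 KO BFP. Counts for the whole family are given with all libraries and without these 2 (the reduced set). For PDX1 KO ISL1 OE that set leaves replicate 2 alone. Its calls on that group therefore take their spread from the other groups. ISL1 RNA averaged 67.6 CPM in ISL1 KO BFP and 384.5 CPM in WT BFP (edgeR adjusted p = 0.000833). It averaged 72.9 CPM in ISL1 KO ISL1 OE and 319.8 CPM in WT ISL1 OE, and neither passed the test against BFP (log2 fold change 0.11 ± 0.34, edgeR adjusted p = 1 in ISL1 KO and log2 fold change -0.27 ± 0.42, edgeR adjusted p = 1 in WT), so ISL1 OE is used here as a label. RNA of PAX6 and PDX1 does not check those knockouts. Of the lists of cell markers, the 6 enterochromaffin-like genes (TPH1, FEV, DDC, SLC18A1, CBLN1 and LMX1A) summed to 2157–2910 CPM in ISL1 KO BFP, 1248–1965 CPM in PAX6 KO BFP, 3463–3978 CPM in PDX1 KO BFP and 800.1–932.2 CPM in WT BFP. They were called higher for 5, 2 and 6 of 6 in the ISL1, PAX6 and PDX1 knockouts, and none was at 0 in any library. Of 4 liver markers (ALB, APOA1, AFP and TTR, the last also known from islets) 2 were called lower in each knockout, and 1 of 4 duct and progenitor markers (KRT19, SOX9, CFTR and SPP1). None of these 8 was at 0 in any library. The liver sums were 3105–4411, 3374–4156 and 3013–3134 CPM in the ISL1, PAX6 and PDX1 knockouts with BFP, against 9529–10050 CPM in WT BFP, and the duct sums 1050–1177, 1269–1564 and 553.6–643.1 CPM, against 1241–1269 CPM. The 5 islet hormones summed to 3454–4884, 4118–5294 and 14300–18300 CPM in those knockouts and to 47370–58900 CPM in WT BFP. Called lower were 3, 3 and 1 of them in the ISL1, PAX6 and PDX1 knockouts, and 1 was called higher in PAX6 KO. In the reduced set 5, 4 and 3 were lower, and 1 was higher in PAX6 KO. Of 9 neuronal markers 2, 2 and 3 were called higher in those knockouts and none lower. In the reduced set 3 were higher and 3 lower, 4 and 0, and 5 and 2. Their sums were 489.5–628.8, 548.3–908.8 and 674.1–794.6 CPM, against 587–745.9 CPM in WT BFP. Of 5 mesenchymal markers none was called in either direction, and 1 was lower in PDX1 KO in the reduced set. These summed to 106.3–279.9, 153.5–744.9 and 81.86–637.3 CPM, and to 173.6 and 984.9 CPM in the WT BFP libraries. These are bulk libraries, so fewer cells of a type and less RNA per cell cannot be told apart, and the part of cell makeup in the results below was not tested.

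Levels between genes are compared in TPM, the authors' values scaled for transcript length. The whole family summed to 2495 ± 54.1 TPM in PDX1 KO BFP (SD, n = 3), the highest of the 8 groups. The sum was 1523 ± 197 TPM in ISL1 KO BFP (n = 3), 1452 ± 194 TPM in PAX6 KO BFP (n = 3) and 1440 ± 148 TPM in WT BFP (n = 2). With the ISL1 vector it was 1239 ± 203 TPM in ISL1 KO (n = 3), 1033 ± 52 TPM in PAX6 KO (n = 3), 1208 ± 527 TPM in PDX1 KO (n = 2) and 1398 ± 223 TPM in WT (n = 2). The PDX1 KO BFP libraries thus lay above all others, while ISL1 KO BFP, PAX6 KO BFP and WT BFP did not differ beyond their spread. The 15 two-pore genes supplied most of this RNA, 51.88% to 72.66% of it in each library.

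**Figure D1:**
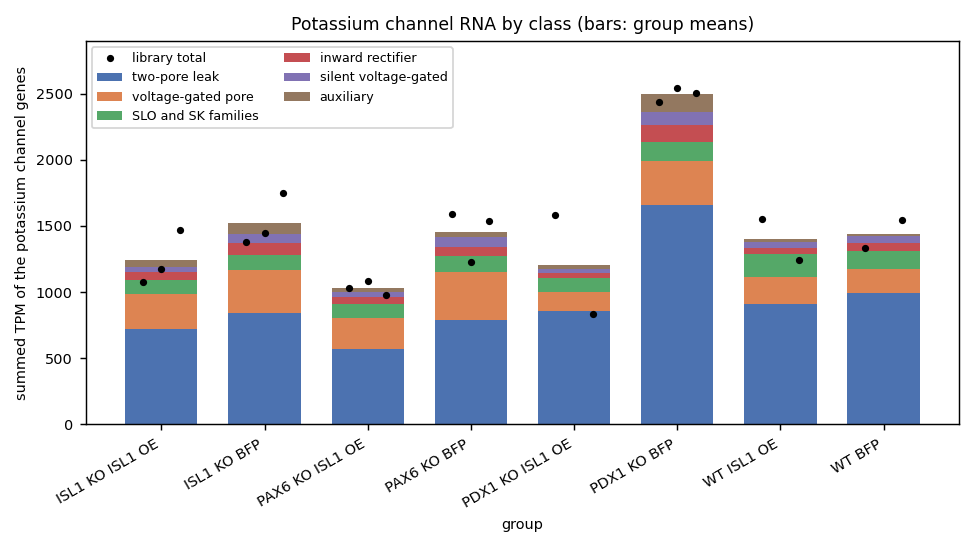
Summed TPM of the potassium channel genes in the 8 groups (horizontal axis), as stacked bars of the group means of 6 classes (colours), with a point for the sum of all members in each library. The PDX1 KO BFP libraries had the highest sums, with a family mean of 2495 TPM against 1440 TPM in WT BFP, and the two-pore leak class was the largest in every group.

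A few genes carried most of the level. Only 6 of 95 members reached a group mean of 100 TPM, and 24 reached 10 TPM, while 32 stayed under 1 TPM in every group. KCNK17 was first in every group by mean, with 593.4, 502.05 and 1174 TPM in ISL1 KO, PAX6 KO and PDX1 KO BFP and 531.3 TPM in WT BFP. KCNK16 followed, with 188.2, 234.5 and 434.1 TPM in the same knockouts and 384.5 TPM in WT BFP. Both encode leak channels opened by alkaline pH outside the cell and are known chiefly from the pancreas. KCNMA1, the large-conductance calcium-activated pore, stood at 102.3, 102.9 and 116.3 TPM against 129.5 TPM. KCNH6, a pore of the ether-a-go-go-related family, stood at 136.5, 127.5 and 113.2 TPM against 77.9 TPM. KCNIP1, a calcium-binding partner of KCND pores, was also past 100 TPM in 1 group (113.5 TPM in PDX1 KO BFP). By subfamily, the member with the highest mean was KCNA6, KCNB2, KCNC4, KCND1 and KCNH6 among voltage-gated pores, KCNF1, KCNG1, KCNS3 and KCNV1 among silent subunits, KCNJ6 among inward rectifiers, KCNMA1, KCNN3 and KCNT2 among calcium- and sodium-activated pores, and KCNAB2, KCNE4, KCNIP1 and KCNMB4 among auxiliary subunits. Both KCNU1 and KCNRG are alone in their subfamilies. The filter on low counts left 86 members for testing and removed KCNA7, KCNA10, KCNG4, KCNJ1, KCNJ9, KCNJ18, KCNK4, KCNK18 and KCNU1.

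**Figure D2:**
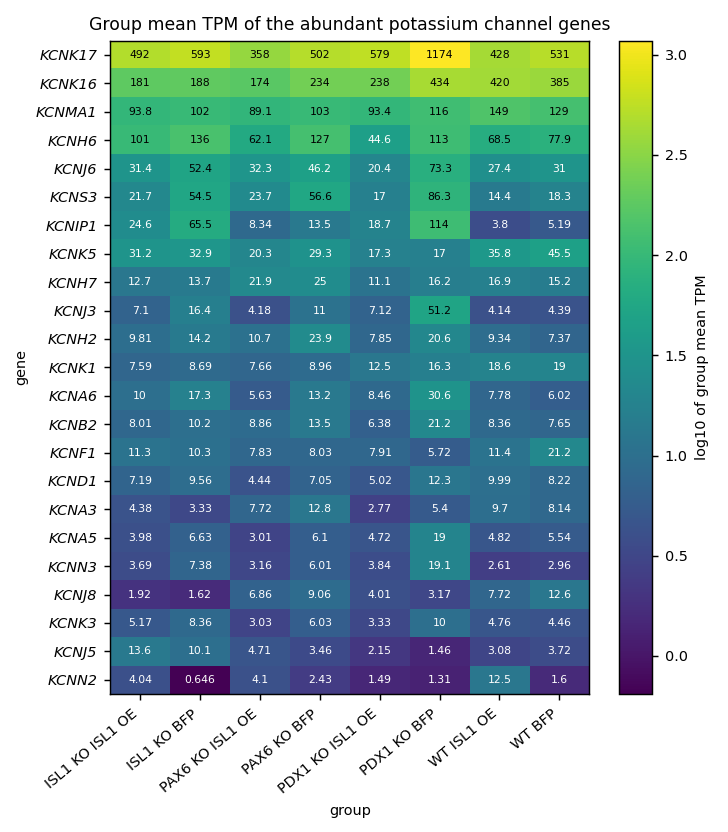
Group mean TPM (printed in each cell, with a log10 colour scale) of 23 potassium channel genes that reached 10 TPM in any group, in rows from the highest level down, for the 8 groups in columns. KCNK17 and KCNK16 led every group, and KCNIP1 ran from 113.5 TPM in PDX1 KO BFP to 3.802 TPM in WT ISL1 OE.

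Over all 8 groups together, 50 of the 86 tested members differed (edgeR quasi-likelihood F test, adjusted p under 0.05), where 25.8% of all genes did. In the reduced set 72 differed, where 56.8% of all genes did.

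Each knockout was then compared with WT under the BFP vector. In ISL1 KO BFP 9 members were higher and 7 lower than in WT BFP, where 6.52% of all 22207 genes tested were called (2.05% higher and 4.48% lower). In PAX6 KO BFP 9 were higher and 6 lower, where 6.65% of all genes were called (2.4% higher and 4.24% lower). In PDX1 KO BFP 14 were higher and 8 lower, where 11.4% of all genes were called (4.56% higher and 6.84% lower). In the reduced set the counts were 21 higher and 20 lower, 21 and 15, and 23 and 14, where 28.4%, 28.7% and 33.3% of all genes were called. The median absolute log2 fold change of tested members was 0.95, 0.87 and 0.93 in the ISL1, PAX6 and PDX1 knockouts, beside 0.42, 0.42 and 0.46 over all genes. All 3 comparisons share the 2 WT BFP libraries, so their results are set side by side and are not independent.

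The number called depended on single libraries. Shares of all genes called are given only for the fit of 8 group means with all libraries and for the reduced set. In the other fits a change in the family cannot be told from a change over all genes. Without WT BFP replicate 1 the members called fell to 6, 0 and 7 in the ISL1, PAX6 and PDX1 knockouts, and without WT BFP replicate 3 to 10, 3 and 7. In ISL1 KO the number was 9 without ISL1 KO BFP replicate 1 and 8 without replicate 3. In PAX6 KO it was 4 without PAX6 KO BFP replicate 1 and 6 without replicate 3, and in PDX1 KO 12 without PDX1 KO BFP replicate 2 and 13 without replicate 3. The members called whichever single library was left out were KCNIP1, KCNK13, KCNK16, KCNA3, KCNJ8 and KCNJ16 in ISL1 KO, none in PAX6 KO, and KCNIP1, KCNJ3, KCNK13, KCNN3 and KCNS3 in PDX1 KO. WT BFP replicate 1 and 1 library of each knockout were read on lanes 5 to 8 and the others on lanes 1 to 4. With this lane set as a term, 8 members were higher and 7 lower in ISL1 KO, 8 and 6 in PAX6 KO, and 13 and 7 in PDX1 KO. Among libraries of lanes 1 to 4 only, which leave 1 WT BFP library, 1, 0 and 0 members were called.

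**Figure D3:**
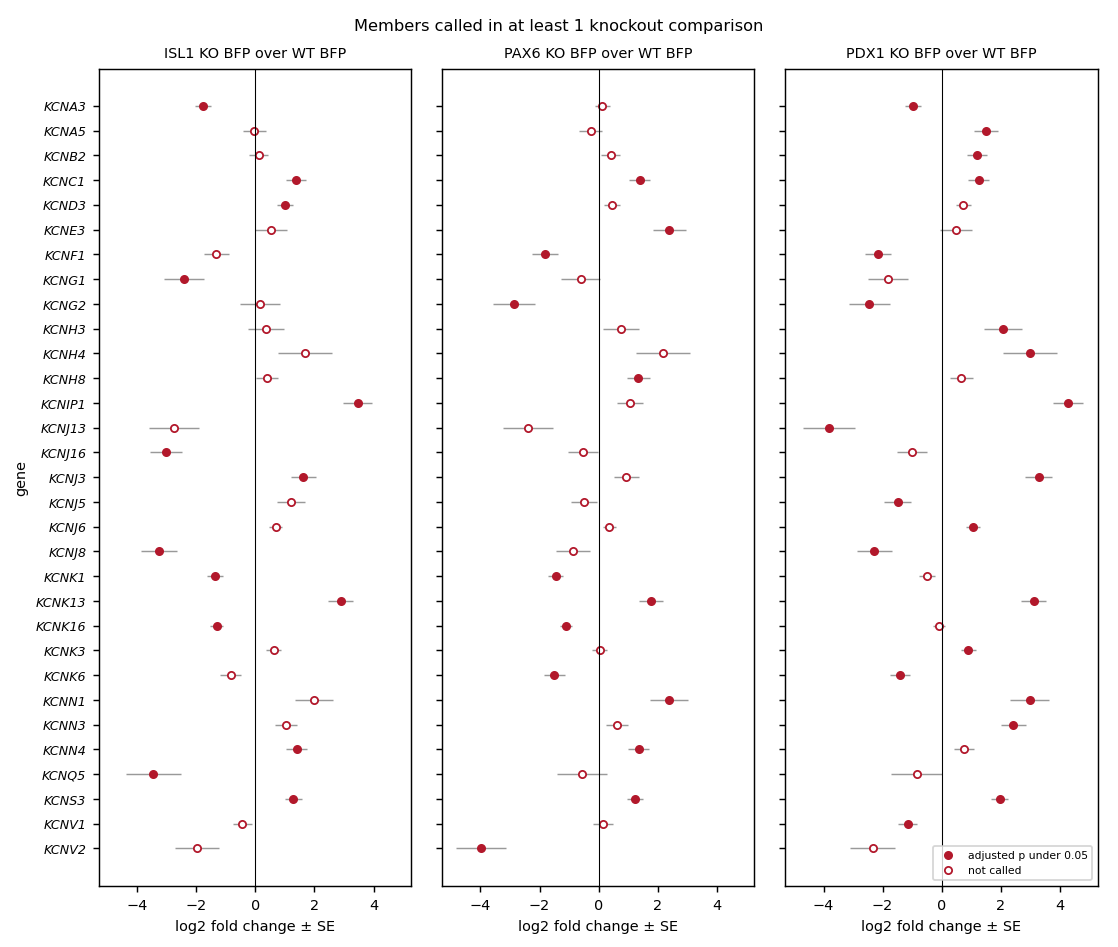
Log2 fold change (points, with bars of 1 SE) of 31 potassium channel genes called in at least 1 of the comparisons, in ISL1 KO BFP, PAX6 KO BFP and PDX1 KO BFP (panels), each against WT BFP, with filled points where the edgeR adjusted p was under 0.05. Among members past the threshold KCNIP1 had the largest rise in ISL1 KO and PDX1 KO (3.46 and 4.28), and KCNK16 was lower in ISL1 KO and PAX6 KO (-1.32 and -1.11).

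The member with the smallest adjusted p in ISL1 KO and in PDX1 KO was KCNIP1, whose product binds calcium through EF hands and brings KCND pores to the membrane. Its level was 135.1, 151.2 and 107.5 CPM in the PDX1 KO BFP libraries, 66.2, 62.4 and 94.5 CPM in ISL1 KO BFP and 16.3, 9.37 and 17.1 CPM in PAX6 KO BFP, against 5.88 and 7.67 CPM in WT BFP. All PDX1 KO and ISL1 KO libraries lay far above both WT libraries. The log2 fold change against WT was 4.28 ± 0.52 in PDX1 KO (SE, edgeR adjusted p = 0.000208) and 3.46 ± 0.496 in ISL1 KO (edgeR adjusted p = 0.00055). In PAX6 KO it was 1.07 ± 0.44 and missed the threshold (edgeR adjusted p = 0.17, 0.00528 in the reduced set). With all libraries the fit called no other of the 17 auxiliary genes tested in ISL1 KO or PDX1 KO. The reduced set also called KCNAB2 higher in both (0.017 and 0.00349, edgeR adjusted p), KCNIP3 lower in both, in ISL1 KO KCNMB4 higher and KCNE4 lower, and in PDX1 KO KCNMB2 higher. In PAX6 KO 1 was called, KCNE3, a partner of KCNQ1, with 2.04, 1.41 and 0.8204 CPM against 0.238 and 0.302 CPM in WT BFP (log2 fold change 2.39 ± 0.56 SE, edgeR adjusted p = 0.0167). KCND3, a pore of transient currents that KCNIP proteins bind, had 22.7, 22.9 and 27.2 CPM in ISL1 KO BFP against 13.6 and 10.9 CPM in WT BFP (log2 fold change 0.99 ± 0.27 SE, edgeR adjusted p = 0.0373). With all libraries KCND1 and KCND2 were called in none of the 3 knockouts, and the reduced set called KCND1 lower in PAX6 KO. KCNIP1 overlaps KCNMB1 and noncoding genes on the other strand, and the libraries keep no strand, so reads of such pairs cannot be told apart, but KCNMB1 stayed at or below 0.119 TPM in every group mean.

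Among the two-pore genes, 1 of 13 rose and 2 fell in ISL1 KO, 1 rose and 3 fell in PAX6 KO, and 2 rose and 1 fell in PDX1 KO. In the same comparisons 6.52%, 6.65% and 11.4% of all genes were called. KCNK16 had 113.5, 121.9 and 119.5 CPM in ISL1 KO BFP, 148.1, 118.2 and 144.7 CPM in PAX6 KO BFP and 299.1, 279.6 and 251 CPM in PDX1 KO BFP, against 289.7 and 300.5 CPM in WT BFP. The ISL1 KO and PAX6 KO libraries all lay well below WT, and the PDX1 KO libraries lay near it. Its log2 fold change was -1.32 ± 0.21 in ISL1 KO (SE, edgeR adjusted p = 0.00105), -1.11 ± 0.21 in PAX6 KO (edgeR adjusted p = 0.00486) and -0.09 ± 0.21 in PDX1 KO (edgeR adjusted p = 0.857). Its neighbour KCNK17 had 419.3, 404.4 and 632.2 CPM in ISL1 KO BFP, 407.9, 257.5 and 487.3 CPM in PAX6 KO BFP and 886.2, 1080 and 972.6 CPM in PDX1 KO BFP, against 421.3 and 653.7 CPM in WT BFP. With all libraries it was called in none of the 3, with log2 fold changes of -0.15 ± 0.42, -0.48 ± 0.41 and 0.87 ± 0.43 (edgeR adjusted p = 0.903, 0.59 and 0.229). Its PDX1 KO libraries did not overlap WT, and the reduced set called it higher there (edgeR adjusted p = 0.0261).

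KCNK16 and KCNK17 lie next to each other on the minus strand of chromosome 6 in GRCh38, at 39314698–39322968 and 39299001–39314553. Their start regions are shown because the genes are neighbours and the most abundant of the family, and with all libraries the test called KCNK16 in ISL1 KO and PAX6 KO and KCNK17 in no knockout. Each window runs from 250 bases before to 50 bases after the gene's start (RefSeq, GRCh38.p14), at chr6:39322919-39323218, minus strand for KCNK16 and chr6:39314370-39314669, minus strand for KCNK17. Capitals mark the letters TAAT on either strand (TAAT or ATTA), the core shared by many homeodomain sites.
KCNK16: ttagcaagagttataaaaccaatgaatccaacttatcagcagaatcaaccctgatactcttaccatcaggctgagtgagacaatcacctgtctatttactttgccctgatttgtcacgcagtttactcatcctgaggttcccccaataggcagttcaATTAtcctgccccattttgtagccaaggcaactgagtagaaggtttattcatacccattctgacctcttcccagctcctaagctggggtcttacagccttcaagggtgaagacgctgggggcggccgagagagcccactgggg
KCNK17: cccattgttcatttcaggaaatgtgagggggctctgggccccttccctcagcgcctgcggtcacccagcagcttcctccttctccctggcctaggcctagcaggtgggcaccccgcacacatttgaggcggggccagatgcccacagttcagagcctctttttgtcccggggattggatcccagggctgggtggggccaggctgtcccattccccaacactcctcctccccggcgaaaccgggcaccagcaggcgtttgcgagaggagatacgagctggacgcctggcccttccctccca
The table lists 2 windows for KCNK16, of which the first listed is shown, and 1 for KCNK17. The KCNK16 window held 1 match and the KCNK17 window 0. Over all RefSeq gene starts 17637 of 35116 such windows (50.2%) held the letters, and over the 72 members with a window 40 of 110 windows did (36.4%).

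KCNK13, a leak channel inhibited by halothane, was higher in all 3 knockouts at a low level. It had 5.59, 4.45 and 7.75 CPM in ISL1 KO BFP, 2.97, 2.04 and 3.25 CPM in PAX6 KO BFP and 6.62, 7.92 and 6.24 CPM in PDX1 KO BFP, against 0.417 and 1.21 CPM in WT BFP. No knockout library overlapped the WT libraries. The log2 fold change was 2.88 ± 0.43 in ISL1 KO (SE, edgeR adjusted p = 0.000683), 1.78 ± 0.41 in PAX6 KO (edgeR adjusted p = 0.016) and 3.11 ± 0.43 in PDX1 KO (edgeR adjusted p = 0.000409). KCNK1, a weak inward-rectifying leak channel, fell in ISL1 KO and PAX6 KO. Its libraries read 9.01, 8.91 and 12.1 CPM in ISL1 KO BFP, 8.15, 10.8 and 9.38 CPM in PAX6 KO BFP and 17.5, 17.4 and 19.8 CPM in PDX1 KO BFP, against 27.6 and 24.2 CPM in WT BFP. The log2 fold changes were -1.37 ± 0.26 and -1.46 ± 0.26 in ISL1 KO and PAX6 KO (SE, edgeR adjusted p = 0.00454 and 0.00368), and -0.503 ± 0.26 in PDX1 KO, which missed the threshold (edgeR adjusted p = 0.257, 0.0144 in the reduced set). KCNK6, a close relative of KCNK1, averaged 2.68 ± 0.393 CPM in PAX6 KO BFP and 2.86 ± 0.545 CPM in PDX1 KO BFP (SD, n = 3 each) and 7.62 ± 0.171 CPM in WT BFP (n = 2). It fell in both, by log2 fold changes of -1.51 ± 0.36 and -1.41 ± 0.35 (SE, edgeR adjusted p = 0.0176 and 0.0159). KCNK3, an acid-inhibited leak channel, rose in PDX1 KO, with 37.8 ± 3.69 CPM in PDX1 KO BFP (n = 3) and 20.3 ± 3.699 CPM in WT BFP (log2 fold change 0.899 ± 0.25 SE, edgeR adjusted p = 0.0299). KCNK5, a pH-sensing leak channel next in level, was called in none of the 3 knockouts and in the reduced set was lower in all of them (edgeR adjusted p = 0.0347, 0.00647 and 8.78e-05).

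Of 12 inward rectifiers tested, 1 rose and 2 fell in ISL1 KO, none was called in PAX6 KO, and 2 rose and 3 fell in PDX1 KO. The shares of all genes called were 6.52%, 6.65% and 11.4%. In PAX6 KO DESeq2 and the reduced set called KCNJ12 higher and KCNJ13 lower, and the reduced set also KCNJ3 higher and KCNJ2 and KCNJ8 lower. KCNJ3 encodes a subunit of the G protein-gated channel that needs a partner such as the KCNJ6 or KCNJ5 product. KCNJ3 had 116.9, 138.7 and 147.9 CPM in PDX1 KO BFP, 44.6, 38.4 and 45.04 CPM in ISL1 KO BFP and 32.4, 21.5 and 26.1 CPM in PAX6 KO BFP, against 11.2 and 16.6 CPM in WT BFP. The PDX1 KO libraries were the highest and the groups did not overlap. The log2 fold change was 3.28 ± 0.47 in PDX1 KO (SE, edgeR adjusted p = 0.000489), 1.62 ± 0.43 in ISL1 KO (edgeR adjusted p = 0.0324) and 0.94 ± 0.42 in PAX6 KO (edgeR adjusted p = 0.207). KCNJ6, the most abundant inward rectifier among the members, had 205, 249.6 and 211.3 CPM in PDX1 KO BFP against 93.3 and 119.02 CPM in WT BFP, and rose (log2 fold change 1.06 ± 0.23 SE, edgeR adjusted p = 0.00671). The other partner went the opposite way. KCNJ5 had 3.96, 3.95 and 3.099 CPM in PDX1 KO BFP and 23.9, 22.6 and 24.8 CPM in ISL1 KO BFP, against 10.1 and 10.6 CPM in WT BFP. It fell in PDX1 KO (log2 fold change -1.49 ± 0.44 SE, edgeR adjusted p = 0.0381), and its log2 fold change in ISL1 KO was 1.199 ± 0.46 (edgeR adjusted p = 0.141).

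Besides KCNJ5, the inward rectifiers called lower with all libraries were KCNJ8, KCNJ16 and KCNJ13, of which KCNJ16 was low in WT BFP too. KCNJ8, known from the vascular ATP-sensitive channel, had 2.296, 2.31 and 1.64 CPM in ISL1 KO BFP, 8.52, 9.73 and 14.7 CPM in PAX6 KO BFP and 5.32, 3.65 and 3.44 CPM in PDX1 KO BFP, against 16.8 and 23.3 CPM in WT BFP. It fell in ISL1 KO (log2 fold change -3.27 ± 0.61 SE, edgeR adjusted p = 0.00379) and in PDX1 KO (log2 fold change -2.28 ± 0.59 SE, edgeR adjusted p = 0.0192). Of 3 endothelial markers (PECAM1, CDH5 and KDR) the ISL1 knockout had 1 called lower, and the PAX6 and PDX1 knockouts 2 each. Their sum was 3.99–6.74 CPM in ISL1 KO BFP, 1.65–4.02 CPM in PAX6 KO BFP and 1.12–4.42 CPM in PDX1 KO BFP, against 14.4–23.5 CPM in WT BFP, most of it KDR, while PECAM1 was at 0 in 8 and CDH5 in 4 of the 21 libraries. The part of such cells in the KCNJ8 result was not tested. KCNJ16, which forms mixed channels with the KCNJ10 product, fell in ISL1 KO to 0.214 ± 0.0513 CPM (SD, n = 3), against 1.76 ± 0.07497 CPM in WT BFP (log2 fold change -3.03 ± 0.54 SE, edgeR adjusted p = 0.00267). KCNJ13, a channel of transporting epithelia, had 0.697, 0.504 and 0.6398 CPM in PDX1 KO BFP against 7.802 and 9.45 CPM in WT BFP (log2 fold change -3.81 ± 0.89 SE, edgeR adjusted p = 0.0105).

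Voltage-gated pores rose more often than they fell. Of 28 tested, 4 rose and 2 fell in ISL1 KO, 4 rose and none was called lower in PAX6 KO, and 6 rose and 1 fell in PDX1 KO. Over all genes 2.05%, 2.4% and 4.56% were called higher and 4.48%, 4.24% and 6.84% lower. KCNB2, a pore of delayed rectifier current, rose in PDX1 KO, with 47.4 ± 6.81 CPM (SD, n = 3) against 20.7 ± 4.12 CPM in WT BFP (log2 fold change 1.19 ± 0.33 SE, edgeR adjusted p = 0.0262). KCNQ5, a pore of slow non-inactivating current, fell in ISL1 KO, with 0.3396, 0.241 and 0.0574 CPM against 3.61 and 1.02 CPM in the WT BFP libraries, which differed widely (log2 fold change -3.45 ± 0.92 SE, edgeR adjusted p = 0.0343).

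KCNA3, best known from T lymphocytes, had 7.71, 7.46 and 6.43 CPM in ISL1 KO BFP, 34.03, 22.9 and 23.6 CPM in PAX6 KO BFP and 10.1, 13.4 and 14.1 CPM in PDX1 KO BFP, against 21.98 and 27.1 CPM in WT BFP. It fell in ISL1 KO (log2 fold change -1.77 ± 0.26 SE, edgeR adjusted p = 0.000683) and in PDX1 KO (log2 fold change -0.97 ± 0.26 SE, edgeR adjusted p = 0.0233), while PAX6 KO libraries lay around the WT values. KCNA5, known from the atrium of the heart, rose in PDX1 KO, with 32.5 ± 2.14 CPM (SD, n = 3) against 11.5 ± 1.16 CPM in WT BFP (log2 fold change 1.497 ± 0.41 SE, edgeR adjusted p = 0.0246). KCNC1, a pore of fast-spiking neurons, rose in all 3 knockouts at a low level. It averaged 2.78, 2.81 and 2.56 CPM in ISL1 KO, PAX6 KO and PDX1 KO BFP and 1.07 CPM in WT BFP, with log2 fold changes of 1.38, 1.39 and 1.25 (edgeR adjusted p = 0.0275, 0.0257 and 0.029). In the ether-a-go-go-like group, KCNH8 rose in PAX6 KO (1.34, edgeR adjusted p = 0.0457) and KCNH3 and KCNH4 in PDX1 KO (2.07 and 3.004, edgeR adjusted p = 0.0446 and 0.0428); these were chosen for naming after their values were seen. With all libraries KCNH6 and KCNH2, the channel of cardiac repolarisation, were called in none of the 3. Their log2 fold changes were 0.48, 0.31 and 0.26 for KCNH6 and 0.63, 1.25 and 1.18 for KCNH2. The reduced set called KCNH6 higher in ISL1 KO and KCNH2 higher in PAX6 KO and PDX1 KO. KCNQ1 was called in none of the 3 with all libraries or in the reduced set. It overlaps the antisense gene KCNQ1OT1, and without strand their reads cannot be told apart.

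The silent subunits moved in both directions. KCNS3 rose in all 3 knockouts, with 64.5, 70.7 and 80.95 CPM in ISL1 KO BFP, 74.1, 50.3 and 84.1 CPM in PAX6 KO BFP and 103.3, 136.9 and 106.8 CPM in PDX1 KO BFP, against 27.5 and 31.6 CPM in WT BFP. No knockout library overlapped WT, and PDX1 KO was highest. The log2 fold changes were 1.28 ± 0.28, 1.23 ± 0.28 and 1.97 ± 0.29 in the ISL1, PAX6 and PDX1 knockouts (SE, edgeR adjusted p = 0.0105, 0.0144 and 0.000534). KCNF1 had 17.9, 13.7 and 8.87 CPM in ISL1 KO BFP, 9.13, 12.3 and 7.57 CPM in PAX6 KO BFP and 8.79, 7.602 and 6.38 CPM in PDX1 KO BFP, against 37.7 and 29.8 CPM in WT BFP. It fell in PAX6 KO (log2 fold change -1.805 ± 0.43 SE, edgeR adjusted p = 0.0199) and PDX1 KO (log2 fold change -2.15 ± 0.44 SE, edgeR adjusted p = 0.00438), and its log2 fold change in ISL1 KO was -1.33 ± 0.43 (edgeR adjusted p = 0.0787). KCNG2 fell in PAX6 KO and PDX1 KO (-2.86 and -2.45, edgeR adjusted p = 0.024 and 0.0317), KCNV2 in PAX6 KO (0.0567 ± 0.0237 CPM against 0.927 ± 0.262 CPM in WT BFP, edgeR adjusted p = 0.01), KCNV1 in PDX1 KO (-1.15, edgeR adjusted p = 0.0289) and KCNG1 in ISL1 KO (-2.42, edgeR adjusted p = 0.0418). KCNG2, KCNV2 and KCNG1 averaged under 5 CPM in every BFP group, and the WT BFP libraries of KCNG1 read 6.83 and 2.14 CPM.

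Among calcium-activated pores, KCNMA1 did not pass the test in any knockout with all libraries. Its log2 fold changes were -0.42 ± 0.23, -0.35 ± 0.23 and -0.22 ± 0.23 (edgeR adjusted p = 0.332, 0.444 and 0.648). The reduced set called it lower in ISL1 KO. KCNN3, a small-conductance channel gated through calmodulin, had 47.01, 60.3 and 56.8 CPM in PDX1 KO BFP, 19.03, 16.7 and 26.8 CPM in ISL1 KO BFP and 18.7, 12.8 and 15.8 CPM in PAX6 KO BFP, against 7.84 and 12.5 CPM in WT BFP. PDX1 KO stood above all other BFP libraries. With all libraries the rise passed the test there (log2 fold change 2.43 ± 0.41 SE, edgeR adjusted p = 0.0015) and not in ISL1 KO (1.03 ± 0.39, edgeR adjusted p = 0.127) or PAX6 KO (0.63 ± 0.38, edgeR adjusted p = 0.391). The reduced set called KCNN3 higher in ISL1 KO too. KCNN1, of the same kind, rose in PAX6 KO and PDX1 KO, with means of 2.44 and 3.71 CPM against 0.463 CPM in WT BFP (2.38 and 2.98, edgeR adjusted p = 0.0357 and 0.00752). KCNN4, the intermediate-conductance channel, rose in ISL1 KO and PAX6 KO, with 1.13, 1.25 and 1.02 CPM in ISL1 KO BFP and 0.983, 1.28 and 1.05 CPM in PAX6 KO BFP against 0.496 and 0.357 CPM in WT BFP (1.395 and 1.36, edgeR adjusted p = 0.025 and 0.028).

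**Figure D4:**
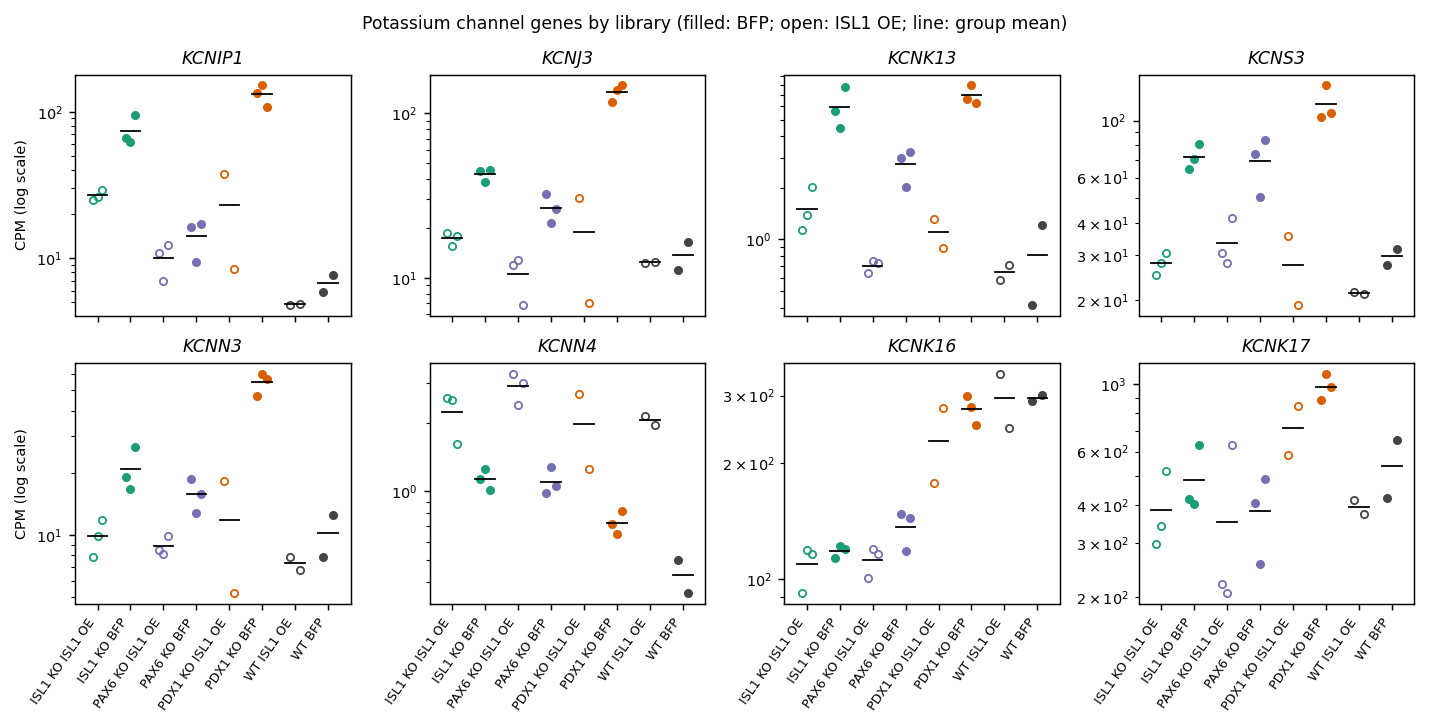
CPM (log scale) of 8 potassium channel genes in each library, by group, with a bar for the group mean. KCNIP1 was 131.3 CPM in PDX1 KO BFP against 6.77 CPM in WT BFP, and KCNK16 was 118.3 CPM in ISL1 KO BFP against 295.1 CPM in WT BFP.

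The start regions of the genes that were higher in PDX1 KO whichever library was left out are shown, since these genes moved together there. All run from 250 bases before to 50 bases after the start (RefSeq, GRCh38.p14), with TAAT or ATTA in capitals. They lie at chr5:170353237-170353536, plus strand (KCNIP1), chr2:154698445-154698744, plus strand (KCNJ3), chr14:90061744-90062043, plus strand (KCNK13), chr2:17877597-17877896, plus strand (KCNS3) and chr1:154870232-154870531, minus strand (KCNN3).
KCNIP1: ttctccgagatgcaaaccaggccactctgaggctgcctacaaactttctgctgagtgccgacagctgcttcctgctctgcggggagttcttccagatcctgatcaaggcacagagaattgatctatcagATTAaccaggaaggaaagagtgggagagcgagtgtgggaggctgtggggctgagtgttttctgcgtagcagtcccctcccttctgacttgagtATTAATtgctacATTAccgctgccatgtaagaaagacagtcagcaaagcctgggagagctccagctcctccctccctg
KCNJ3: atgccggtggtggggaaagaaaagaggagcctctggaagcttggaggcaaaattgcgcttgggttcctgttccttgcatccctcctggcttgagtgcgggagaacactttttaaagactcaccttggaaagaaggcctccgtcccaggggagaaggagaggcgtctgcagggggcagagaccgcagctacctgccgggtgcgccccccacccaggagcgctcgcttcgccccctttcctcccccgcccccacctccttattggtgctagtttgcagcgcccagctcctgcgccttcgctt
KCNK13: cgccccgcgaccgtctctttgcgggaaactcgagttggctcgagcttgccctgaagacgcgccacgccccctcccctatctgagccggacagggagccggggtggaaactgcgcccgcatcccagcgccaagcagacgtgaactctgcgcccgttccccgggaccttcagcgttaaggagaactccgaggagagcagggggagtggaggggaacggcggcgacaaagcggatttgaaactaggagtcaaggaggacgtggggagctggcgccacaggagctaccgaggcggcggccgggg
KCNS3: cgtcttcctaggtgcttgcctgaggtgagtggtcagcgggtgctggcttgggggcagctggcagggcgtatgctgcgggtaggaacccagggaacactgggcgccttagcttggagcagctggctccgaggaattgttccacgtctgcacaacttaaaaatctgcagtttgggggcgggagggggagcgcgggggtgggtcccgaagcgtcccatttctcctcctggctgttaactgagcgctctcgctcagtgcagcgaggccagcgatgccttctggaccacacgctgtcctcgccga
KCNN3: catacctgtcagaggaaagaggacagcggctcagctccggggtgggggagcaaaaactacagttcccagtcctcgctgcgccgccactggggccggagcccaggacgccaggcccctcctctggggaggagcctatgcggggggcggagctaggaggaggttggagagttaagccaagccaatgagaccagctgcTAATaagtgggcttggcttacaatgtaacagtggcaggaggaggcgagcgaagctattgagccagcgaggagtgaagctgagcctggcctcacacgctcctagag
The KCNIP1 window held 4 matches, counting TAAT and ATTA separately where they overlap, and the KCNN3 window 1. The windows of KCNJ3, KCNK13 and KCNS3 held 0. These are the first windows listed, and the table holds 2 for KCNIP1 (1 with the letters), 3 for KCNN3 (2 with them), 2 for KCNS3 (0 with them) and 1 each for KCNJ3 and KCNK13.

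The knockouts were then compared with one another. Between PDX1 KO BFP and ISL1 KO BFP 9 members were higher and 3 lower in PDX1 KO (5.7% of all genes called, 2.39% higher and 3.31% lower). Against PAX6 KO BFP 8 were higher and 4 lower in PDX1 KO (3.61% of all genes called, 1.91% higher and 1.69% lower), and between ISL1 KO BFP and PAX6 KO BFP 4 were higher and 6 lower in ISL1 KO (2.78% of all genes called, 0.986% higher and 1.79% lower). In the reduced set the counts were 22 and 10, 19 and 16, and 11 and 13 (26%, 20.1% and 10.7% of all genes). Leaving out any 1 library took these to between 2 and 9, 5 and 8, and 5 and 8 members called, the lowest without ISL1 KO BFP replicate 1 or 2 in the first. KCNIP1 was highest in PDX1 KO and lowest in PAX6 KO. Its log2 difference was 3.204 ± 0.41 between PDX1 KO and PAX6 KO (SE, edgeR adjusted p = 0.000241) and 2.38 ± 0.399 between ISL1 KO and PAX6 KO (edgeR adjusted p = 0.00239). KCNK16 was higher in PDX1 KO than in ISL1 KO (log2 fold change 1.23 ± 0.19 SE, edgeR adjusted p = 0.00121) and PAX6 KO (log2 fold change 1.01 ± 0.19 SE, edgeR adjusted p = 0.00505). KCNJ3 and KCNN3 were likewise higher in PDX1 KO than in ISL1 KO (1.66 and 1.39, edgeR adjusted p = 0.0128 and 0.0215) and PAX6 KO (2.33 and 1.79, edgeR adjusted p = 0.00156 and 0.00585).

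ISL1 KO had more KCNJ5 than either other knockout. The difference was -2.69 ± 0.43 between PDX1 KO and ISL1 KO (SE, edgeR adjusted p = 0.00133), and in PAX6 KO the libraries read 8.63, 9.58 and 3.65 CPM (ISL1 KO minus PAX6 KO 1.71, edgeR adjusted p = 0.0308). PAX6 KO in turn had more KCNA3, KCNK10 and KCNMB2 than ISL1 KO. KCNK10, a stretch-sensitive leak channel, had 0.259, 0.209 and 0.1004 CPM in ISL1 KO BFP against 4.32, 3.98 and 2.04 CPM in PAX6 KO BFP (log2 fold change -4.18 ± 0.598 SE, edgeR adjusted p = 0.000629). KCNMB2, which inactivates the KCNMA1 channel, had 0.5498, 0.498 and 1.16 CPM in ISL1 KO BFP against 5.42, 2.88 and 5.54 CPM in PAX6 KO BFP (log2 fold change -2.64 ± 0.503 SE, edgeR adjusted p = 0.00659). For KCNA3 the log2 difference between ISL1 KO and PAX6 KO was -1.897 ± 0.24 (edgeR adjusted p = 0.000237). Those 4 genes, KCNIP1, KCNA3, KCNK10 and KCNMB2, were called between ISL1 KO and PAX6 KO whichever library was left out.

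The ISL1 vector was compared with BFP within each genotype. In ISL1 KO 1 member rose and 2 fell, where 0.423% of all genes were called (0.243% higher and 0.18% lower). In PAX6 KO 1 rose and 1 fell, where 0.414% were called (0.203% higher and 0.212% lower), and in PDX1 KO 3 rose and 13 fell, where 14.4% were called (9.07% higher and 5.34% lower). In WT 1 member was called and rose, where 0.036% of all genes were called, all of them higher. In the reduced set the counts were 7 and 11 in ISL1 KO, 2 and 10 in PAX6 KO and 3 and 0 in WT, where 5.91%, 6.01% and 1.69% of all genes were called. For PDX1 KO that set leaves 1 library with the ISL1 vector, so its family count is left out. The replicate numbers were taken to pair the PAX6 KO libraries. With the number as a block over all 8 groups, 1 member rose and 9 fell there (KCNA4, KCNA5, KCNH2, KCNH6, KCNJ3, KCNK13, KCNK3, KCNN3 and KCNS3). That block also spanned groups whose numbers did not pair, and number 4 occurred in PDX1 KO ISL1 OE alone. The added calls therefore cannot be read as the gain from pairing. With only the groups compared in the fit, no member was called in PAX6 KO or PDX1 KO. The smaller counts rested on single libraries. No member was called in WT without any 1 of its 4 libraries, in ISL1 KO without ISL1 KO BFP replicate 3 or ISL1 KO ISL1 OE replicate 1 or 2, or in PAX6 KO without replicate 1 or 3 of either group. ISL1 KO kept 1 call without ISL1 KO BFP replicate 2. In PDX1 KO 38 were called without PDX1 KO ISL1 OE replicate 2, which leaves replicate 4 alone, and 8 without replicate 4.

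**Figure D5:**
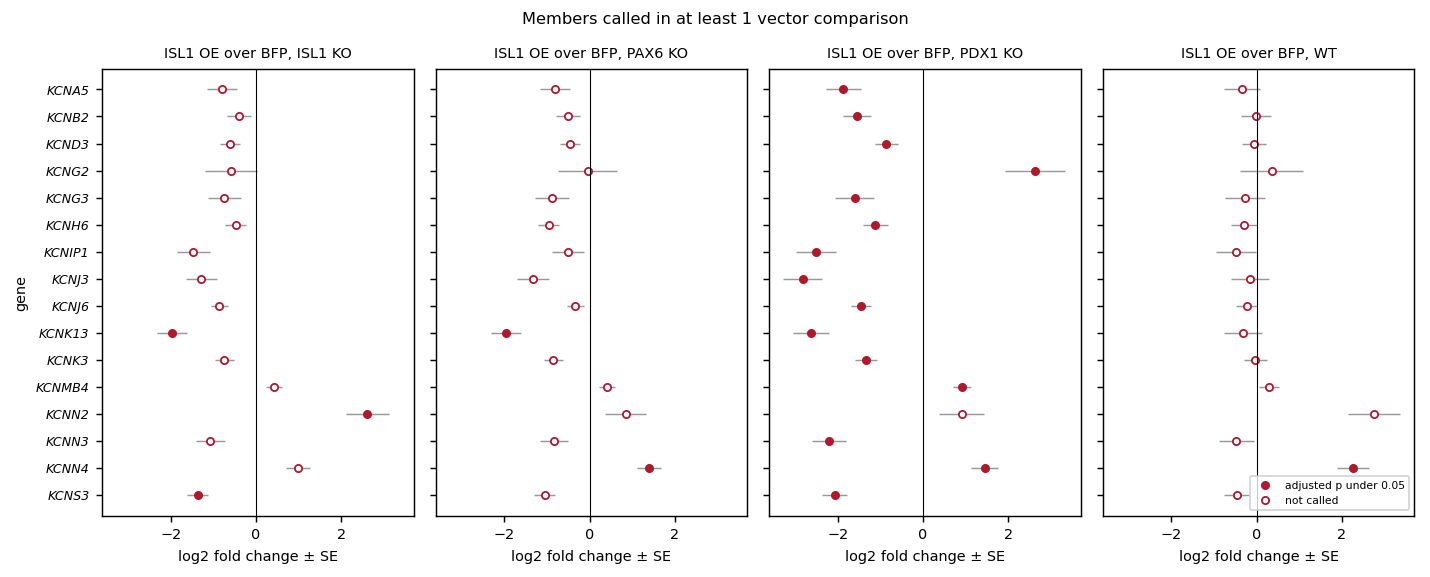
Log2 fold change (points, with bars of 1 SE) of 16 potassium channel genes called in at least 1 of the comparisons, under the ISL1 vector against BFP in ISL1 KO, PAX6 KO, PDX1 KO and WT cells (panels), with filled points where the edgeR adjusted p was under 0.05. KCNK13 was lower in the 3 knockouts (-1.97, -1.96 and -2.63).

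KCNK13, which was higher in each knockout than in WT, was lower under the ISL1 vector in each of them. It had 1.13, 1.39 and 2.02 CPM in ISL1 KO ISL1 OE against 5.59, 4.45 and 7.75 CPM in ISL1 KO BFP (log2 fold change -1.97 ± 0.34 SE, edgeR adjusted p = 0.0125). In PAX6 KO it had 0.637, 0.752 and 0.725 CPM with the ISL1 vector against 2.97, 2.04 and 3.25 CPM with BFP (log2 fold change -1.96 ± 0.35 SE, edgeR adjusted p = 0.0217, with the replicate block 0.00514). In PDX1 KO it had 1.32 and 0.896 CPM with the ISL1 vector against 6.62, 7.92 and 6.24 CPM with BFP (log2 fold change -2.63 ± 0.42 SE, edgeR adjusted p = 0.00113). No libraries overlapped between the vectors in these 3 genotypes. KCNS3 had 25.1, 28.02 and 30.5 CPM in ISL1 KO ISL1 OE against 64.5, 70.7 and 80.95 CPM in ISL1 KO BFP (log2 fold change -1.37 ± 0.24 SE, edgeR adjusted p = 0.014), and 35.6 and 19.2 CPM in PDX1 KO ISL1 OE against 103.3, 136.9 and 106.8 CPM in PDX1 KO BFP (log2 fold change -2.08 ± 0.29 SE, edgeR adjusted p = 0.000413). In PAX6 KO it had 30.6, 28.01 and 41.9 CPM with the ISL1 vector against 74.1, 50.3 and 84.1 CPM with BFP. With all libraries edgeR called it with the block and not without it (edgeR adjusted p = 0.00883, 0.0786 without). The reduced set and DESeq2 called it lower too. Each vector comparison uses the BFP libraries that the comparison with WT also uses, so opposite signs in the pair are not independent. Enterochromaffin-like markers were also lower, with 2, 2 and 5 of 6 called in the ISL1, PAX6 and PDX1 knockouts and none in WT. In the reduced set 6 of 6 were called lower in ISL1 KO and in PAX6 KO, and 2 of 6 in WT. With all libraries the vector effect was called different from that in WT for none of the 6 in any knockout. These markers summed to 945.3–1223, 549.3–1120 and 1217–1260 CPM with the ISL1 vector in ISL1 KO, PAX6 KO and PDX1 KO, all below the BFP sums given above. In WT the sums were lower too, 514.9–541.9 CPM in WT ISL1 OE against 800.1–932.2 CPM in WT BFP. Other lists were higher with the vector in PDX1 KO. Of 4 liver markers 4 were called higher there (3 in the reduced set), with sums of 4894 and 22710 CPM with the ISL1 vector against 3013–3134 CPM with BFP. Of 4 duct and progenitor markers 2 were called higher (3 in the reduced set), with sums of 1135 and 2601 CPM against 553.6–643.1 CPM, and of 5 hormones 2 (1 in the reduced set). The part of these cells in the vector results was not tested.

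KCNN4 rose in WT, PAX6 KO and PDX1 KO. It had 2.16 and 1.96 CPM in WT ISL1 OE against 0.496 and 0.357 CPM in WT BFP (log2 fold change 2.25 ± 0.38 SE, edgeR adjusted p = 0.0421). In PAX6 KO it had 3.31, 2.397 and 3.01 CPM with the ISL1 vector against 0.983, 1.28 and 1.05 CPM with BFP (log2 fold change 1.39 ± 0.29 SE, edgeR adjusted p = 0.0427), and in PDX1 KO 2.69 and 1.25 CPM with the ISL1 vector against 0.716, 0.645 and 0.8198 CPM with BFP (log2 fold change 1.45 ± 0.32 SE, edgeR adjusted p = 0.008). In ISL1 KO its log2 fold change of 0.98 ± 0.29 did not pass the test with all libraries (edgeR adjusted p = 0.187). The reduced set and DESeq2 called it higher there, and library size alone did not. KCNN2, a small-conductance relative, rose in ISL1 KO, with 7.998, 6.62 and 4.02 CPM in ISL1 KO ISL1 OE against 0.792, 1.24 and 1.02 CPM in ISL1 KO BFP (log2 fold change 2.61 ± 0.51 SE, edgeR adjusted p = 0.0249). In WT it had 20.4 and 22.9 CPM with the ISL1 vector and 5.02 and 1.35 CPM with BFP, which did not pass the test with all libraries (edgeR adjusted p = 0.271). The reduced set and DESeq2 called KCNN2 higher in WT (edgeR adjusted p = 0.0188 and DESeq2 adjusted p = 0.00341). Library size alone did not (edgeR adjusted p = 0.209).

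In PDX1 KO the members that fell under the ISL1 vector included KCNIP1, KCNJ3, KCNJ6, KCNN3, KCNK3, KCNB2 and KCNA5, which PDX1 KO had raised above WT. KCNIP1 had 37.4 and 8.49 CPM in PDX1 KO ISL1 OE replicates 2 and 4 against 135.1, 151.2 and 107.5 CPM in PDX1 KO BFP (log2 fold change -2.51 ± 0.47 SE, edgeR adjusted p = 0.00316). KCNJ3 had 30.8 and 7.09 CPM in PDX1 KO ISL1 OE against 116.9, 138.7 and 147.9 CPM in PDX1 KO BFP (log2 fold change -2.83 ± 0.46 SE, edgeR adjusted p = 0.00125). KCNN3 had 18.3 and 5.27 CPM in PDX1 KO ISL1 OE against 47.01, 60.3 and 56.8 CPM in PDX1 KO BFP (log2 fold change -2.21 ± 0.41 SE, edgeR adjusted p = 0.00295). In all 3 genes replicate 4 was the lower of the pair, but replicate 2 also lay below every PDX1 KO BFP library. KCNIP1, KCNJ3, KCNJ6, KCNK13, KCNMB4, KCNN3, KCNN4 and KCNS3 were called whichever library was left out. KCNMB4, an auxiliary subunit of the KCNMA1 channel in neurons, was among the 3 that rose, with 13.7 and 7.93 CPM in PDX1 KO ISL1 OE against 6.05, 5.45 and 5.798 CPM in PDX1 KO BFP (log2 fold change 0.91 ± 0.21 SE, edgeR adjusted p = 0.00981). KCNG2, the remaining riser, read 0.302 and 4.503 CPM with the ISL1 vector and 0.422, 0.488 and 0.2399 CPM with BFP, so its groups overlapped, and it was not called without replicate 4 (log2 fold change -0.33, edgeR adjusted p = 0.712 in the reduced set, so the sign turned).

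KCNK16 and KCNK17 were called under the vector in none of the 4 genotypes. For KCNK16 the log2 fold change was -0.11 ± 0.19 in ISL1 KO, -0.28 ± 0.19 in PAX6 KO, -0.27 ± 0.21 in PDX1 KO and -0.001 ± 0.23 in WT (SE). For KCNK17 it was -0.33 ± 0.37, -0.12 ± 0.37, -0.45 ± 0.42 and -0.45 ± 0.46 in the same order.

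Whether the vector acted differently in a knockout than in WT was tested as an interaction. For ISL1 KO and PAX6 KO no member was called (0.0045% and 0% of all genes called, with 7 and 10 members at an unadjusted p under 0.05, and 0 and 0 in the reduced set). For PDX1 KO 1 member was called (1.36% of all genes, 1.18% higher and 0.18% lower). The reduced set leaves 1 PDX1 KO ISL1 OE library for this test, so its count is left out. The member called with all libraries was KCNJ3, whose vector effect in PDX1 KO minus that in WT was -2.67 ± 0.62 on the log2 scale (SE, edgeR adjusted p = 0.0416). In WT its libraries read 12.3 and 12.5 CPM with the ISL1 vector and 11.2 and 16.6 CPM with BFP. The call was lost in 8 of 9 fits that left out 1 library, and 35 members were called without PDX1 KO ISL1 OE replicate 2.

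Genes outside the KCN symbols that act with these channels were tested in the same fit. Of 13 tested partners of potassium channels, 1 fell in ISL1 KO, none was called in PAX6 KO, and 1 rose and 1 fell in PDX1 KO, where 6.52%, 6.65% and 11.4% of all genes were called. In the reduced set 2 were higher and 3 lower in ISL1 KO, 2 and 2 in PAX6 KO, and 4 and 1 in PDX1 KO, where 28.4%, 28.7% and 33.3% of all genes were called. LRRC38, an auxiliary subunit of the KCNMA1 channel, was the one that fell (log2 fold change -4.16 ± 1.05, edgeR adjusted p = 0.0253 in ISL1 KO and log2 fold change -4.13 ± 1.06, edgeR adjusted p = 0.0177 in PDX1 KO). DPP6, which joins KCND pores beside KCNIP proteins, rose in PDX1 KO (log2 fold change 0.87 ± 0.27, edgeR adjusted p = 0.0446). Under the ISL1 vector in PDX1 KO, LRRC38 rose and AMIGO2, DPP10 and DPP6 fell (4 of 13, where 14.4% of all genes were called), and in the reduced set none was higher and 3 lower. Among the 4 hyperpolarisation-gated HCN genes 1 was higher and 1 lower in PDX1 KO, and none was called in ISL1 KO or PAX6 KO. Of 7 sodium-potassium pump genes 1 fell in PAX6 KO, and none was called in the other knockouts against WT. Under the ISL1 vector in PDX1 KO 2 HCN genes fell and 1 pump gene rose, where 14.4% of all genes were called. The HCN falls were not called in the reduced set, which leaves 1 PDX1 KO ISL1 OE library. With the ISL1 vector the HCN sums in PDX1 KO were 29.07 and 57.5 CPM, against 78.04–90.75 CPM with BFP. The pump sums were 599.7 and 753.7 CPM, against 361.3–393.2 CPM. In the reduced set 1 HCN gene was higher and 1 lower in each knockout against WT. Pump genes called there were 3 lower in ISL1 KO, 1 higher and 2 lower in PAX6 KO, and 1 higher and 4 lower in PDX1 KO. The shares of all genes are those given above.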

How the data were processed

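Bulk RNA of 21 libraries, each read on 4 lanes, was purified (Zymo Quick-RNA) and amplified (SMART-Seq v4), per the labels' protocols; this chemistry keeps no strand and no molecular identifiers. The authors deposited estimated counts per gene, library and lane and TPM values, aligned with STAR to GRCh38 per the submitters' processing notes; the sources used here do not give the counting program. Another 12 columns, of 3 libraries matching no sample's labels, were not used. Estimated counts were summed over lanes (lowest correlation between lanes 0.9895) and rounded, deposited TPM were averaged over lanes, and CPM were computed after TMM scaling (factors 0.707 to 1.15). Symbols were matched for 38592 identifiers, 38568 in a current symbol table and 24 in GENCODE 29, which gave coordinates.

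Tests used edgeR 4.0.16 (R 4.3.3, filterByExpr defaults, 22207 genes kept, 1 fit of 8 group means, quasi-likelihood F test, Benjamini-Hochberg over all genes tested), and a gene was called below an adjusted p of 0.05. Each SE belongs to the model's log2 fold change. The script was tested on simulated counts. P-values measure the spread between biological replicates as the series describes them. Numbers were taken to pair libraries where each of 3 or more same-numbered pairs deviated together with a correlation over 0.1. This held for the PAX6 KO vector comparison (0.176, 0.382 and 0.345) and narrowly not for that in ISL1 KO (0.172, 0.099 and 0.306). An alternative fit took the number as a block term over the libraries of all 8 groups. Named were a panel of 13 islet channel genes, called members up to 14 per knockout, 8 per vector and 6 per other comparison by adjusted p, and the highest member of each subfamily; KCNG1, KCNH3, KCNH4, KCNH8, KCND2, KCNK5, KCNMB1, KCNAB2, KCNIP3, KCNE4, KCNJ2 and KCNJ12, and in PDX1 KO against WT also KCNC1, KCNG2, KCNJ5, KCNV1 and KCNK3, were named outside this rule after their values were seen. Some members are counted in the family totals, but their own values are not reported here. Members, lists and tests were chosen with earlier results of these data known. Alternatives were DESeq2 1.42.0, other scaling, no filter, fits of the compared groups alone, leaving out libraries and, chosen after seeing the data, the lane set.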

Additional observations from a re-analysis of the deposited data

Results flagged for a closer look

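With all libraries, the effect of the ISL1 vector on KCNJ3 was called different between PDX1 KO and WT, by -2.67 ± 0.62 on the log2 scale (SE, edgeR adjusted p = 0.0416). With the vector KCNJ3 read 30.8 and 7.09 CPM in PDX1 KO replicates 2 and 4, against 116.9, 138.7 and 147.9 CPM with BFP, while WT read 12.3 and 12.5 CPM with the vector and 11.2 and 16.6 CPM with BFP. Without PDX1 KO ISL1 OE replicate 4 and PAX6 KO ISL1 OE replicate 3 the difference was -1.96, with PDX1 KO ISL1 OE replicate 2 alone left in its group. The call held in 1 of 9 fits that left out 1 library of the 4 groups. It was lost with only the groups compared in the fit, library size alone or the lane set as a term (edgeR adjusted p = 0.289, 0.0893 and 0.0561). It held with DESeq2 (DESeq2 adjusted p = 0.00108) and with DESeq2 size factors (edgeR adjusted p = 0.0344). Its cause was not tested.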

How the results depend on the processing

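The members called moved by over 1.5 times under several settings, and except where a clause says otherwise the cause was not tested. Outside the reduced set these counts stand without the share of all genes called, so they do not separate the family from all genes. With DESeq2 there were 25 in ISL1 KO against WT, 16 between ISL1 KO and PAX6 KO, 10, 7 and 2 for the vector in ISL1 KO, PAX6 KO and WT, and 13 for the vector difference between PDX1 KO and WT. With only the groups compared in the fit there were 38, 33 and 37 in ISL1 KO, PAX6 KO and PDX1 KO against WT, 31, 28 and 22 for PDX1 KO against ISL1 KO, PDX1 KO against PAX6 KO and ISL1 KO against PAX6 KO, 14, 0, 0 and 4 for the vector in ISL1 KO, PAX6 KO, PDX1 KO and WT, and 0 for the vector difference in PDX1 KO. In the reduced set there were 41, 36 and 37 against WT, 32, 35 and 24 between knockouts, and 18, 12 and 3 for the vector in ISL1 KO, PAX6 KO and WT. The difference in PDX1 KO there rests on 1 library with the ISL1 vector, so its count is left out. With the replicate block there were 28 and 26 in ISL1 KO and PAX6 KO against WT, 21, 21 and 18 between knockouts, and 11 and 10 for the vector in ISL1 KO and PAX6 KO; outside the latter the samples share only a number. Among libraries of lanes 1 to 4, with fewer samples, there were 1, 0 and 0 against WT, 0, 1 and 1 between knockouts, 0, 0, 4 and 0 for the vector in ISL1 KO, PAX6 KO, PDX1 KO and WT, 0 for the difference in PDX1 KO and 14 over any groups. The vector count in WT was 0 with library size alone or the lane set as a term, that in PAX6 KO 1 with library size alone, the lane set or no filter, and the difference in PDX1 KO 0 with library size alone or the lane set and 2 with DESeq2 size factors.

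Leaving out 1 library at a time gave 6 to 11, 0 to 10 and 7 to 15 members in ISL1 KO, PAX6 KO and PDX1 KO against WT, and 2 to 9, 5 to 8 and 5 to 8 between knockouts. The vector gave 0 to 2, 0 to 2, 8 to 38 and 0 to 0 in ISL1 KO, PAX6 KO, PDX1 KO and WT, the difference in PDX1 KO 0 to 35, and any groups 41 to 65. Where 1 library remained in a group it was taken to vary like the others.

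Among called members and the named panel, 1 called value changed sign. This was KCNG2 under the vector in PDX1 KO, at -0.329 in the reduced set, and from -0.316 without PDX1 KO ISL1 OE replicate 4 to 3.61 without replicate 2. The other values that changed sign had not passed the test. With library size alone these were KCNK16 in PDX1 KO (0.0194), KCNK17 in ISL1 KO (0.0426) and KCNQ1 in PAX6 KO (0.152). On lanes 1 to 4 they were KCNB2 in ISL1 KO (-0.0137) and KCNQ1 in ISL1 KO, PAX6 KO and PDX1 KO (0.33, 0.808 and 0.669). Over fits that left out 1 library, KCNK17 in ISL1 KO ran from -0.422 (without WT BFP replicate 1) to 0.2 (without WT BFP replicate 3), and KCNK3 in PAX6 KO from -0.113 (without WT BFP replicate 3) to 0.273. KCNB2 in ISL1 KO ran from -0.0755 (without WT BFP replicate 1) to 0.321. KCNQ1 ran from -0.651 to 0.369 in ISL1 KO, from -0.553 to 0.548 in PAX6 KO and from -0.567 to 0.453 in PDX1 KO, each highest without WT BFP replicate 1. Library size alone moved the median gene by 0.179, 0.232 and 0.111 (log2) in ISL1 KO, PAX6 KO and PDX1 KO against WT, by 0.101 and -0.174 for the vector in WT and PDX1 KO, by -0.121 for PDX1 KO against PAX6 KO, and by -0.111 and -0.271 for the vector difference in PAX6 KO and PDX1 KO. With it, the share of all called genes that were higher was 43.2%, against 31.4% with TMM, in ISL1 KO and 55.6%, against 36.2%, in PAX6 KO. It was 38.3%, against 53.1%, for PDX1 KO against PAX6 KO and 68.5%, against 57.4%, for the vector in ISL1 KO. Low counts limit members near or under 1 CPM, and 9 could not be tested.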
